A study of Mus musculus with 9 samples.

Results

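EWS/ATF1 occupied a set of sites in both a sarcoma cell line and fibroblasts, with a high peak score in the fibroblasts and a low one in the sarcoma cells. These sites are the subject here. They were selected on the peak scores themselves: a peak of the sarcoma-iPSC MEF list with a score of at least 500 (called strong) was taken when it overlapped at least 1 bp of a G1297 peak and every G1297 peak it overlapped scored below 500 (called weak). In all, 1672 of the 27130 MEF peaks met the rule, which is 6.16% of the list. The score is the authors' MACS peak score, which rises by 10 for each 10-fold fall in the P value of enrichment over background, so it reflects read depth and input as well as occupancy.

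The authors compared these 2 cell types because they have genetic abnormalities in common but respond in opposite ways, in senescence and growth, when EWS/ATF1 is induced. Both carry the same inducible oncogene. G1297 is a mouse clear cell sarcoma line in which doxycycline (Dox) switches on EWS/ATF1, tagged with HA, from a tetO cassette at Col1a1. The sarcoma-iPSC MEFs are embryonic fibroblasts that go back to G1297: the line was reprogrammed to iPSCs, these were injected into blastocysts, and fibroblasts were grown from the chimeric embryos. The fibroblasts had survived puromycin, resistance to which comes with the Rosa26-M2rtTA allele. The same allele drives the Dox response. Both received Dox at 0.2 µg/ml for 12 h, and both were immunoprecipitated with an HA antibody against the tagged fusion protein. The labels give 2 G1297 ChIP libraries and 1 MEF ChIP library, but there is 1 peak list per cell type, and the sources used here do not say how the G1297 libraries were combined. There is thus no replicate value for any peak, G1297 stands for 1 line, and the differences below were not tested. Copy-number and chromatin data of these cells were not used here.

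EWS/ATF1 arises from the fusion that defines clear cell sarcoma. It joins the N-terminal transactivating part of the RNA-binding protein EWS to the DNA-binding domain of ATF1, a bZIP factor of the CREB family that recognises the cyclic AMP response element (CRE). The fusion protein no longer depends on cyclic AMP signalling to activate transcription. In ChIP-Seq, a peak is a stretch of genome where immunoprecipitated fragments pile up above background. A peak with a low score is therefore still a called site, and the sites described here were occupied in both cell types by that measure.

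The lists differed in size. The MEF list held 27130 peaks that covered 29.2 Mb, with a median score of 315, and the G1297 list held 8090 peaks that covered 7.36 Mb, with a median score of 270. A score of 500 stood at a similar place in both: 35.8% of the MEF peaks and 30.9% of the G1297 peaks reached it. Of the 5028 MEF peaks that overlapped a G1297 peak, 1672 were strong in the MEFs and weak in G1297, or 33.3%. Another 1428 were strong in both cell types, 1386 were weak in both and 542 were weak in the MEFs and strong in G1297. Sites strong in the MEFs alone were thus 3.08 times as many as sites strong in G1297 alone, in lists of unequal size. The read depth of the libraries was not given in the sources used here, and its part in these counts cannot be told apart from that of the cell type. Among strong MEF peaks with a G1297 counterpart, 53.9% had only weak counterparts (1672 of 3100, 95% exact binomial interval 52.2 to 55.7%). This interval and those that follow cover counting error only, since neighbouring peaks are not independent and each list comes from one pool of reads.

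**Figure D1:**
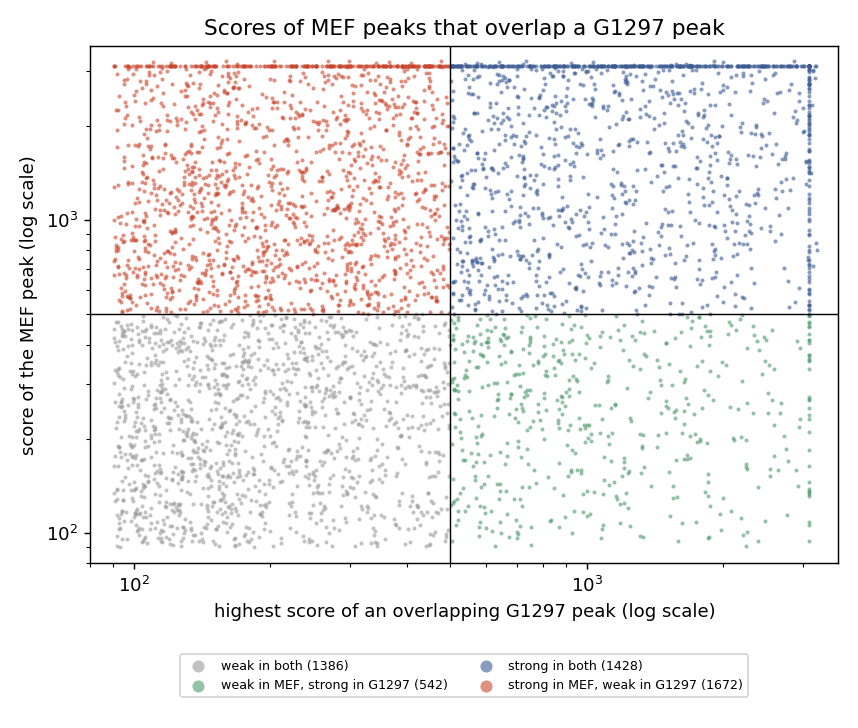
Score of each of the 5028 shared MEF peaks (vertical, log scale) against the highest score of a G1297 peak it overlaps (horizontal, log scale); the lines mark a score of 500. The 1672 sites strong in the MEFs and weak in G1297 fill the upper left field without a gap at either line, and many peaks lie at a score of 3100, the most frequent value in both lists.

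The scores that chose the members are given as a description. In the MEFs the members scored from 502 to 3227, with a median of 1293 and a middle range (25th to 75th percentile) of 793 to 2358. In G1297 the highest overlapping peak scored from 90.1 to 497, with a median of 212 and a middle range of 140 to 326. A MEF score of 1000 or more was listed for 63.3% of members, compared with 54.6% of all strong MEF peaks and 75.4% of sites strong in both. A G1297 score below 200 was listed for 46.4% of members, compared with 56.9% of all weak G1297 peaks. The MEF score was a median of 6.47 times the G1297 score, at least 2 times in 1557 members (93.1%), against 46.3% of all shared MEF peaks, and at least 10 times in 447. A ratio of scores from separate libraries is not a ratio of occupancy.

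The place of each score in its own list is given beside it, as a restatement of the scores that chose the members. The rank was taken as the percent of peaks in the same list with a lower score, ties counted at the middle. The members had a median rank of 85.2 in the MEF list and 41.6 in the G1297 list. Since the threshold of 500 stood at a rank of 64.2 in the MEF list and 69.1 in the G1297 list, the rule itself fixed a higher MEF rank for nearly all members. It was higher in 1666 of 1672, by a median of 42.8 points, from which nothing further is read. Ranked among shared peaks alone, 1528 members had the higher rank in the MEFs. The 6 exceptions in the full lists scored 506 to 555 in the MEFs and 450 to 495 in G1297, close to both thresholds. The nearest to equal was chr2:169771927-169773017 (mm9), which scored 505.84 in the MEFs and 495.12 in G1297, a ratio of 1.02. Sites of this kind are members by the rule and differ little between the lists.

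Spearman's rho between the MEF score and the highest G1297 score was 0.085 across the 1672 members. Across all 5028 shared MEF peaks it was 0.28. Both describe peaks of the same pair of lists, and the first is restricted by the thresholds and by the ties at 3100, so nothing is read from it. Members at a MEF score of 3000 or more had a median G1297 score of 252, and those between 500 and 600 had one of 200.

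The members with the largest score ratios were sites with a MEF score of 3100 over a G1297 peak near the lowest score of its list. The site chr1:185423247-185425204 (mm9) scored 3100 in the MEFs and 90.09 in G1297, a ratio of 34.4. At chr5:112708262-112712701 the MEF peak spanned 4440 bp and also scored 3100, over a G1297 peak of 558 bp that scored 90.24. The site chr13:59869319-59872159 scored 3100 against 90.75. The last of the 5 highest ratios were 32.5, at chr7:112661767-112663484, and 32.1, at chr9:79488473-79490410. In all 5 the G1297 peak lay wholly within the MEF peak and ranked in the lowest 5% of its list. A score of 3100 was shared by 229 members (13.7%) and by 1062 MEF peaks in all, so order among them cannot be read.

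The 5 members with the highest listed MEF scores lay above the 229 tied at 3100, and how far their order reflects enrichment is uncertain. The first, chr2:72188997-72190697 (mm9), scored 3227.04 in the MEFs and 268.41 in G1297, and the centres of its 2 peaks were 6 bp apart. The second, chr17:69464491-69465759, scored 3220.76 against 475.94, close to the G1297 threshold. The third, chr3:145911527-145913385, scored 3219.64 against 159.51. The other 2 of the 5 highest were chr4:32265299-32267553, at 3217.04 against 203.44, and chr13:56764928-56766663, at 3211.16 against 298.21. G1297 ranks of these 5 ran from 29.8 to 67.8, while the lowest G1297 scores named above belonged to sites at 3100.

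Scores ran on without a step across both thresholds. The lowest MEF scores among members were 501.5 at chr1:4695942-4696954, 502.14 at chr15:52974179-52975189 and 502.24 at chr4:150287372-150288364. The shared MEF peaks nearest below 500 scored 499.91 at chr14:45621314-45622425, 499.63 at chr17:47010997-47011887 and 498.55 at chr2:71481765-71482756. On the G1297 side the highest scores among members were 497.19, 496.76 and 496.62, and the strong shared MEF peaks just outside had G1297 scores of 500.37, 500.44 and 500.87. The member with the 497.19 score, chr7:148353481-148355578, had a MEF score of 3095.63. The site just outside with the 500.87 score, chr4:32389007-32394426, had a MEF score of 3100 and a width of 5420 bp, so the line separated sites with like scores in both lists.

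The share of sites with a G1297 counterpart rose with MEF score, and the share of members among them fell. Of MEF peaks scoring 500 to 600, 18.7% overlapped a G1297 peak, against 59.5% of those at 3000 or more. Of the shared ones, 65.3% were members in the lowest range (164 of 251, interval 59.1 to 71.2%) and 35.7% in the highest (259 of 725, interval 32.2 to 39.3%). In between, the share was 63.0% at 1000 to 1500 and 53.5% at 2000 to 3000. Members were nonetheless 12.2% of all MEF peaks at 500 to 600, 24.8% at 2000 to 3000 and 21.3% at 3000 or more. These shares are made of the scores and overlaps that the rule used, so nothing further is read from them.

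**Figure D2:**
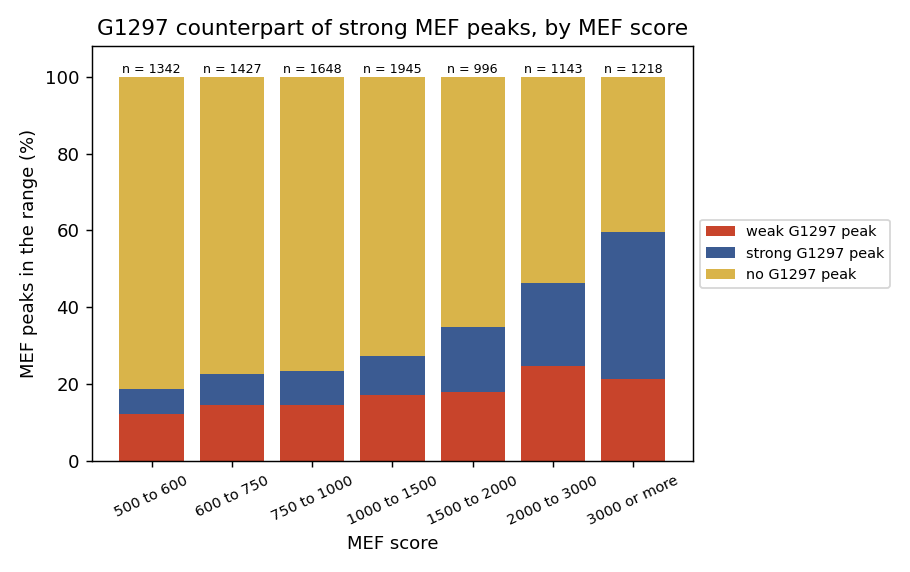
Strong MEF peaks divided by their G1297 counterpart (vertical, percent of the peaks in the range) in 7 ranges of MEF score (horizontal); n is the number of MEF peaks. The part with no G1297 peak shrinks as the score rises, while the weak part goes from 12.2% to 24.8% at 2000 to 3000 and 21.3% at 3000 or more.

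Seen from G1297, the members drew on a minority of its weak peaks. The members overlapped 1697 G1297 peaks, 30.3% of the 5592 that scored below 500, while 2470 of the 5592 overlapped no MEF peak. The share lying under a strong MEF peak rose with the G1297 score. It went from 18.2% of G1297 peaks below 100 (93 of 511) to 42.6% of those between 400 and 500 (208 of 488). Among strong G1297 peaks it was higher, at 49.6% between 500 and 1000 and 64.7% at 1000 or more. These counts include weak G1297 peaks under a MEF peak that also overlapped a strong one. Among shared G1297 peaks alone, the share under a strong MEF peak was lowest below 100, at 43.9%. It was 51.1 to 78.0% in the other score ranges.

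The G1297 peak at a member was about as wide as other G1297 peaks of like score. Between scores of 100 and 150, the median width was 650 bp under a strong MEF peak, 640 bp under a weak one and 637 bp where there was no MEF peak. Between 300 and 400 the medians were 889, 863 and 859 bp. Width followed the score in both lists, with a Spearman's rho of 0.81 across members in G1297 and 0.64 in the MEFs. The MEF peaks of members, with a median of 1367 bp, were likewise close in width to strong MEF peaks with no G1297 counterpart (1296 bp) and to those strong in both (1442 bp). By median width, members were thus close to other strong peaks in the MEF list and to other weak peaks in the G1297 list.

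Within a member the G1297 peak was nested in the broader MEF peak. The G1297 partner had a median width of 764 bp and lay wholly inside the MEF peak in 1587 of 1672 members (94.9%), compared with 61.7% of sites strong in both, 53.5% of those weak in both and 5.72% of those weak in the MEFs and strong in G1297. As peak width followed the score in both lists, nesting largely restates the scores that chose the members. It covered a median of 56.0% of the MEF peak, against 84.1% at sites strong in both. The MEF peak was the wider one in 1658 members. Most members were 1-to-1 pairs, with 1 G1297 partner in 1647 and 2 in 25.

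The median distance between the centres of the overlapping peaks was 80.5 bp, with a middle range of 36.0 to 190 bp, longer than at sites strong in both (70.0 bp), strong in G1297 alone (64.8 bp) and weak in both (48.2 bp). Centres lay within 100 bp of each other in 56.6% of members, 63.8% of sites strong in both, 64.9% of sites strong in G1297 alone, 79.3% of sites weak in both and 65.8% of all shared MEF peaks. Among members the distance was weakly related to the score ratio (Spearman's rho 0.19 across the 1672), with a median of 52.0 bp where the ratio was below 2 and 148 bp where it was 20 or more. Between the same ends of the range the median width was 1121 and 1718 bp in the MEFs and 904 and 630 bp in G1297, and the ratio itself is made of the scores the rule used. At matched MEF scores the distance in members was close to that of sites strong in both for scores of 500 to 1000 (62.0 against 58.5 bp). It was larger at 1000 to 2000 (76.0 against 60.5 bp) and at 2000 or more (117 against 85.5 bp). The G1297 score and width were not matched. Over all MEF scores the median width of the G1297 partner was 764 bp in members and 1214 bp at sites strong in both.

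**Figure D3:**
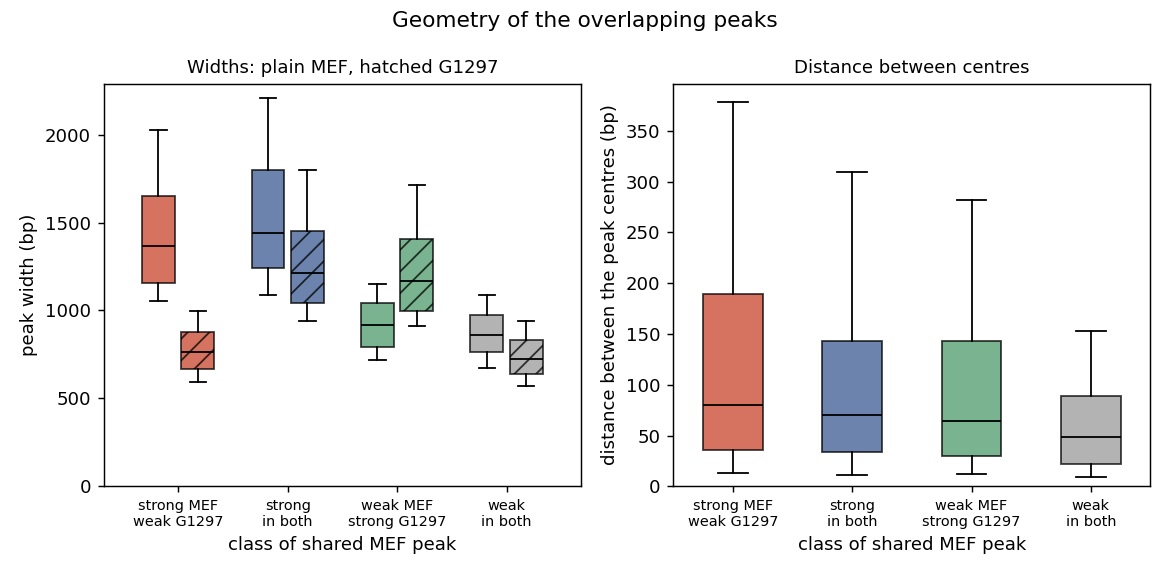
Widths of the MEF peak and its strongest G1297 partner (left) and distance between their centres (right), in bp, for the 4 classes of shared MEF peak; boxes span the 25th to 75th percentile with the median as a line, and whiskers reach the 10th and 90th. Members pair a MEF peak of median width 1367 bp with a G1297 peak of 764 bp.

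A few members were shared only at an edge. In 5 of 1672 the centre of the G1297 peak fell outside the MEF peak. It lay inside in 99.7% of members, 99.6% of sites strong in both, 94.3% of those strong in G1297 alone and 98.9% of those weak in both. The centres were over 500 bp apart in 90 members (5.38%), and in 3.85, 4.24 and 1.23% of these other classes, in the same order. Such a distance also occurred with the G1297 peak wholly inside a wide MEF peak, as at chr5:112708262-112712701. The least overlap was 54 bp, at chr6:32885132-32886276 (mm9), where the centres were 1058 bp apart and the scores 556.23 and 416.8. This site was singled out after its values were seen. When the overlap had to reach 50% of the shorter peak, the number of members changed by 3.

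The widest members were long MEF peaks over much shorter G1297 peaks. The widest, chr10:5256755-5261356 (mm9), spanned 4602 bp, scored 3100 in the MEFs, and contained 2 G1297 peaks with scores of 149.48 and 345.19. The next, chr10:13552093-13556608, spanned 4516 bp over 1 G1297 peak of 911 bp that scored 418.24, with centres 32.5 bp apart. The third widest was the chromosome 5 site described above, where the centres were 1354 bp apart. Of the 25 members with 2 partners, those with the highest MEF scores also included chr1:187185641-187188445, with G1297 scores of 365.37 and 135.99, and chr11:58602344-58605055, with scores of 145.75 and 100.23. In 10 of the 25 the G1297 scores summed to 500 or more.

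Other MEF peaks lay near members about as often as near other strong MEF peaks. Another MEF peak lay within 12.5 kb of 1052 members (62.9%, interval 60.6 to 65.2%). The share was 67.4% for sites strong in both and 62.0% for strong MEF peaks with no G1297 counterpart. For sites weak in the MEFs it was 53.1% where G1297 was strong and 47.5% where both were weak. The share over all MEF peaks is not given here. The median gap to the nearest other MEF peak was 7.02 kb at members and 6.88 kb at strong MEF peaks with no G1297 counterpart. With the neighbour required to be strong as well, the count was 637 members (38.1%), compared with 40.3% of sites strong in both, 35.2% of strong MEF peaks with no G1297 counterpart and 23.3% of sites weak in both.

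Further G1297 peaks were less common around members than around sites strong in both. Apart from its own partner, a G1297 peak lay within 12.5 kb of 30.6% of members (512 of 1672, interval 28.4 to 32.9%) and of 49.0% of sites strong in both (interval 46.4 to 51.6%). At strong MEF peaks with no G1297 counterpart the share was 14.8%. Members thus lay between sites strong in both and strong MEF peaks with no G1297 counterpart, and close to sites weak in both (33.0%). Sites weak in the MEFs and strong in G1297 were close to sites strong in both (271 of 542, interval 45.7 to 54.3%). Among shared sites the share thus went with the strength of the G1297 peak, and the value of members was not particular to them. The share over all MEF peaks is not given here either. Members, sites strong in both and strong MEF peaks with no G1297 counterpart kept their order within each of 3 ranges of MEF score. At 500 to 1000 the shares were 32.0, 45.9 and 15.3%, and at 1000 to 2000 they were 32.0, 53.8 and 13.9%. At 2000 or more they were 27.8, 48.1 and 14.8%. These classes are defined by the G1297 score, which ranges of MEF score do not match, so nothing further is read from the order.

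Peaks called in G1297 alone were counted at a longer distance. Within 100 kb, a G1297 peak with no MEF counterpart was present at 40.2% of members, 45.0% of sites weak in both, 53.1% of sites strong in both, 64.8% of sites weak in the MEFs and strong in G1297, and 22.9% of strong MEF peaks without a G1297 counterpart. Strong G1297 peaks with no MEF counterpart were within 100 kb of 157 members (9.39%) and of 253 sites strong in both (17.7%). For MEF peaks with no G1297 counterpart, the mean number within 100 kb is given, which is not comparable with these percentages. It was 4.21 for strong MEF peaks without a G1297 counterpart, 4.09 for members and 3.73 for sites strong in both. For sites strong in G1297 alone it was 3.07, and for sites weak in both 3.02. Peaks in a neighbourhood were counted once for each site near them, and differences between the classes were not tested.

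**Figure D4:**
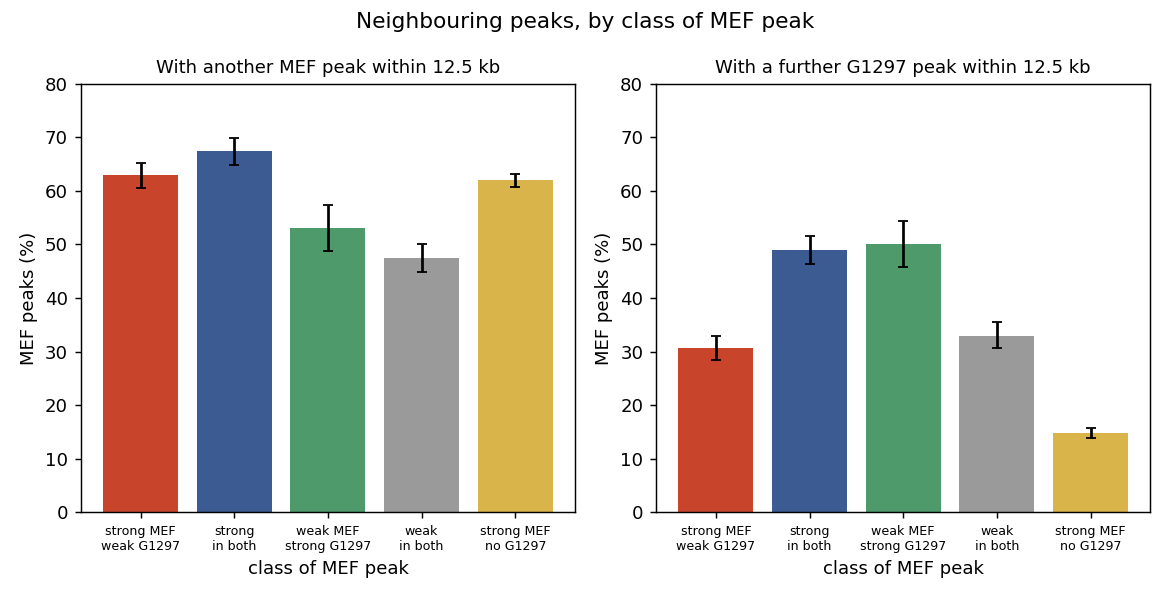
Percent of MEF peaks with another MEF peak (left) or a further G1297 peak (right) within 12.5 kb, by class, with 95% exact binomial intervals that cover counting error only. For MEF neighbours the members (62.9%) sit with the other strong MEF peaks. For G1297 neighbours the members (30.6%) sit with sites weak in both (33.0%). These lie between sites strong in both (49.0%) and strong MEF peaks without a G1297 peak (14.8%).

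For each strong shared MEF peak the class of the nearest other one on the chromosome was examined. Where it lay within 100 kb, it was a member for 56.0% of members (504 of 900, interval 52.7 to 59.3%), for 43.8% of sites strong in both (390 of 891, interval 40.5 to 47.1%) and for 49.9% of both classes together. Within 12.5 kb the shares were 49.7% for members (interval 44 to 55.3%), 38.9% for sites strong in both (interval 34.1 to 43.8%) and 43.6% together. Within 1000 kb they were 56.6% (interval 54.0 to 59.0%), 47.5% (interval 44.8 to 50.2%) and 52.3%. Members were 53.9% of all strong shared MEF peaks (1672 of 3100). This share was inside the intervals of members at 12.5 and 100 kb and just below the one at 1000 kb. It was above the intervals of sites strong in both at each distance. The classes come from the scores that the rule used. Reciprocal neighbours entered these counts from both sides, and no test was made.

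Most members had no other member within 12.5 kb all the same, although 62.9% had another MEF peak within that distance. No matching count is given for the other classes. When members separated by 12.5 kb or less were linked, 1505 were not linked to another, 150 formed pairs, 9 formed groups of 3 and 8 formed 2 groups of 4. One group of 4 spanned 12.2 kb on chromosome 1, from 40281259 to 40293454 (mm9). Its MEF scores were 3100, 1117.44, 3100 and 3100, over G1297 scores of 174.57, 281.06, 494.43 and 145.92. With 100 kb added on either side the stretch held 4 more MEF peaks, all with no G1297 counterpart, and no other G1297 peak.

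The other group of 4 spanned 24.3 kb on chromosome 5, from 111676358 to 111700696 (mm9). In order along the chromosome its MEF scores were 1738.66, 2385.49, 1255.52 and 553.91, and the G1297 scores were 269.58, 145.66, 124.55 and 92.36. With 100 kb added on either side the stretch held 7 members among 14 MEF peaks, and the other 7 had no G1297 counterpart. None of the 9 G1297 peaks there reached 500, and 2 of them overlapped no MEF peak. Both stretches were picked for their members, and on chromosome 1 the only shared sites were the 4 linked ones.

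**Figure D5:**
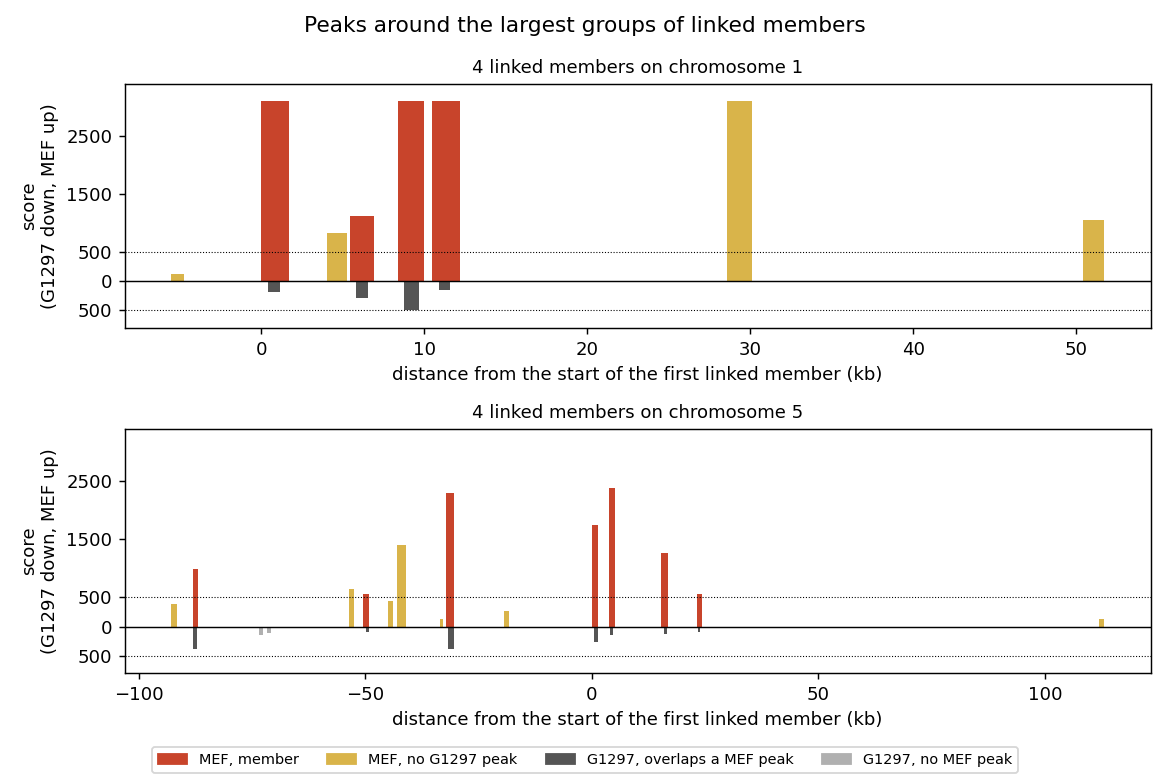
Peak scores (MEF upwards, G1297 downwards) against distance in kb from the start of the first linked member, for the groups of 4 on chromosomes 1 and 5 with 100 kb on either side; dotted lines mark a score of 500. All MEF peaks that overlap a G1297 peak are members, and no G1297 peak reaches 500.

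Members were spread over the genome. All of chromosomes 1 to 19 and X held members, 1669 in all, and the other 3 were on sequences not placed within a chromosome in mm9. Of strong shared MEF peaks, the share that were members was above 50% on 17 of these 20 chromosomes. It was 65.8% on chromosome 7 (96 of 146, interval 57.5 to 73.4%), the one chromosome whose interval did not include the 53.9% of the whole set. An interval at this level misses the true share in about 1 of 20 cases. The lowest shares were 47.1% on chromosome 6 (98 of 208, interval 40.2 to 54.1%) and 47.4% on chromosome 15. Chromosome X held 10 members among 13 such peaks, too few to place its share more closely than 46.2 to 95%. The median score ratio of members ranged from 5.26 on chromosome 4 to 7.87 on chromosome 14.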

How the data were processed

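HA ChIP-Seq reads were trimmed with cutadapt, aligned to mm9 with Bowtie2 2.2.0 and called with MACS 1.4.2, per the submitters' processing notes. The values used were the score of each peak and its position in the lists deposited by the authors, 1 list for each of the 2 cell types. Read depth per library was not given in the sources used here. Peaks were paired by an overlap of at least 1 bp and classed at a score of 500 in Python 3.11.15 (pandas 2.3.3), and the classes were checked with bedtools 2.31.1 and tested on simulated data. Intervals are exact binomial at 95%. Named sites were those with the largest ratios, highest scores, greatest widths and most partners, those nearest the thresholds and the largest linked groups; edge cases were named after their values were seen. The members and lists were chosen with earlier results of these data known. Genes, promoters and motifs were not assigned, because the genome used here is of another build: 147 MEF peaks, 16 of them members, end beyond its chromosomes. Ebf1-KRAB and NANOG-KRAB libraries were not analysed here.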

Additional observations from a re-analysis of the deposited data

How the results depend on the processing

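Of 24 alternatives, 19 left the value within its margin (1.5 times for counts, the binomial interval for shares). The number of members stayed between 1476 and 1669 under all of its 11 alternatives. The share of strong shared MEF peaks that were members followed the threshold: it was 40.2% at a score of 300 in both lists, 48.3% at 400 and 58.5% at 600, and 48.5% when the G1297 threshold was set at 416, which leaves the same percent of that list as 500 does in the MEF list. The first 3 moved the threshold in both lists at once, and the last moved it in the G1297 list alone. Members with another MEF peak within 12.5 kb numbered 637 when that neighbour had to score 500 or more. No paired analysis was possible because the scores come as 1 list per cell type with no value for a replicate, and for the same reason no replicate could be left out. Alternatives on the distance to gene starts and on motifs were not run, since no genome or annotation of mm9 was used here. Scores depend on library depth, which is unknown, so a weak score in G1297 cannot be told apart from a shallower library.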
